A study of Mus musculus with 6 samples.

Results

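Endothelial fatty acid handling was represented by 7 genes, Cd36, Fabp4, Fabp5, Lpl, Pparg, Angptl4 and Scarb1, chosen by name from 20665 autosomal protein-coding genes. Every 1-kb window that overlapped the mm10 RefSeq span of a gene, or the 20 kb on either side of it, was taken, which gave 449 of the 1683697 windows with a value in all 6 samples. The assay was whole-genome bisulfite sequencing by tagmentation, in which a transposase cuts and tags small amounts of DNA before bisulfite conversion. Lung endothelial cells of wild-type mice had been isolated by fluorescence-activated sorting, and 3 samples were titled Aged and 3 mAdu. The study states ages of 18 and 8 months, which were taken to belong to Aged and mAdu by the sense of those titles. Whether the 3 samples of each group were different animals is not stated, so p-values speak only for the variation among these samples, and part of it may be technical. Each value is the authors' mean methylation level of a window, given here in percent, and the read depth behind it is unknown.

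Capillary endothelium passes fatty acids from the blood to the tissue beneath it. Lipoprotein lipase, encoded by Lpl, frees fatty acids from circulating triglyceride at the luminal surface, where it is held by GPIHBP1, and the secreted protein ANGPTL4 inhibits it. CD36 takes up long-chain fatty acids, FABP4 and FABP5 carry them in the cytosol, and SR-BI, the product of Scarb1, binds high-density lipoprotein. The nuclear receptor PPARγ, encoded by Pparg, is activated by fatty acids and induces Fabp4 and Cd36 in adipocytes. In mammalian DNA most CpG sites are methylated, while CpG-rich promoters and many active enhancers are not.

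Promoter sequences of RefSeq, build GRCm38.p6, which has the coordinates of mm10, were matched for Cd36 and Pparg and gave 4 transcription starts. The 250 bases upstream of each start are shown because their CpG content differed widely and can be set beside the measured levels. Bases are 5′ to 3′ on the gene's strand, and capitals mark CpG sites.
Pparg, the first start: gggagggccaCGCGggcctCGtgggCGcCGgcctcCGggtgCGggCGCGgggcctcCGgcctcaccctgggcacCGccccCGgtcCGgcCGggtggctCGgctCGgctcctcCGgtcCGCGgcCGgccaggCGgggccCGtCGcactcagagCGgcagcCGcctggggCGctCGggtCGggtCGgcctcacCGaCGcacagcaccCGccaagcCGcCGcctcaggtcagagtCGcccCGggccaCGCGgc
Pparg, the second start: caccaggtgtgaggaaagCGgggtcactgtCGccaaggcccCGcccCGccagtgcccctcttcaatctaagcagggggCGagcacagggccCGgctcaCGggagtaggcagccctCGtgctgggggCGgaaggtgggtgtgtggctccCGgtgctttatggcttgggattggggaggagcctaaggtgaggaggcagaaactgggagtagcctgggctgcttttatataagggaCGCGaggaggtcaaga
Pparg, the third start: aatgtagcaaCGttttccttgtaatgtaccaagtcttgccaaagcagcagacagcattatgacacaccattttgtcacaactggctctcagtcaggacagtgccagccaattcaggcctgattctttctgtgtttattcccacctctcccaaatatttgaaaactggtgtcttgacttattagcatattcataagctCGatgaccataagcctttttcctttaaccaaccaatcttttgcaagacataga
Cd36 start: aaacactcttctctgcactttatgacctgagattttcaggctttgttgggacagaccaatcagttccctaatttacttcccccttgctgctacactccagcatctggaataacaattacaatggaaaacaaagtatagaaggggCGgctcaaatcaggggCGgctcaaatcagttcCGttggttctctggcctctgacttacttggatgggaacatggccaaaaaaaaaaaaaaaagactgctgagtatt
The sequence before the first Pparg start, at chr6:115360894-115361143 on the plus strand, held 38 CpG sites and 82.4% G and C. The window holding this start, 115361001 to 115362000, had 1.18, 0.948 and 0.767% methylation in aged samples, against 0.735, 0.612 and 0.904% in mAdu samples. All 6 values lay near 0 and the groups overlapped. The second start, whose upstream sequence at chr6:115362099-115362348 held 12 CpG sites, lay in a window with 14.2, 17.9 and 16.3% in aged samples and 17.9, 16.7 and 16.5% in mAdu samples. The third start, with 2 CpG sites at chr6:115421816-115422065, lay 61.2 kb inside the gene. The window just before it, which held most of the printed bases, was largely methylated, at 67.1, 55.7 and 65.8% in aged samples against 62.2, 62.5 and 62.0% in mAdu samples. The windows holding the third Pparg start and the Cd36 start were not analysed here.

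The Cd36 sequence, at chr5:17835897-17836146 on the minus strand, held 3 CpG sites and 43.2% G and C. Its start lay 53.1 kb inside the 5′ end of the RefSeq gene span. The window that held the more distant bases, 17836001 to 17837000, had 25.9, 28.0 and 28.0% in aged samples against 25.3, 23.6 and 23.1% in mAdu samples, a difference of 3.31 points (SE 1.58, limma adjusted p = 0.978). The groups did not overlap, but the difference did not pass the test. For the first and the second Pparg start, the level of the window holding the start can be read against all promoters. For the Cd36 start and the third Pparg start only a neighbouring window was read, which is not the same position. Over 12033 promoters with 10 or more CpG sites in 250 bases, the window holding the start had a median level of 1.62%, and 92.7% of such windows were under 20%. Over 9210 promoters with 0 to 3 CpG sites the median was 71.7% and 7.38% were under 20%. AGGTCA, the core letters recognised by many nuclear receptors, occurred once on either strand before the Cd36 start and the first and the second Pparg start, and not before the third, against 14.1% of 31396 promoter windows of the same length. CCAAT occurred before the Cd36 start and the second and the third Pparg start, against 33.7% of promoters. GGGCGG occurred before the Cd36 start and the first and the second Pparg start, against 33.0% of promoters. TATAAA occurred before the second Pparg start only, against 12.4% of promoters. A match describes letters and is not a measured binding site.

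Each gene end was measured over the windows overlapping the stretch from 1000 bp outside to 500 bp inside it, called an edge. In 6 of the 7 genes exactly 1 edge was under 50% methylation and the opposite edge was above 80%, while the edges of Fabp4 were both highly methylated. Over 19089 genes with both edges measured, 61.2% had exactly 1 edge under 50%, with the other at any level from 50% up, and 30.8% had none. The 5′ edge was the low edge in Pparg and Cd36. In Lpl and Fabp5 it was the edge with the lower coordinate, and in Angptl4 and Scarb1 the edge with the higher coordinate. The gap between edges was 52.4 to 69.6 points in these 6 genes and 3.40 points in Fabp4. A wide gap is part of how the 6 were described, by 1 low and 1 high edge. The median of 38.7 points over all genes includes genes without that pattern. Among all genes the 6 gaps stood at the 66.0 to 85.2 percentiles.

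**Figure D1:**
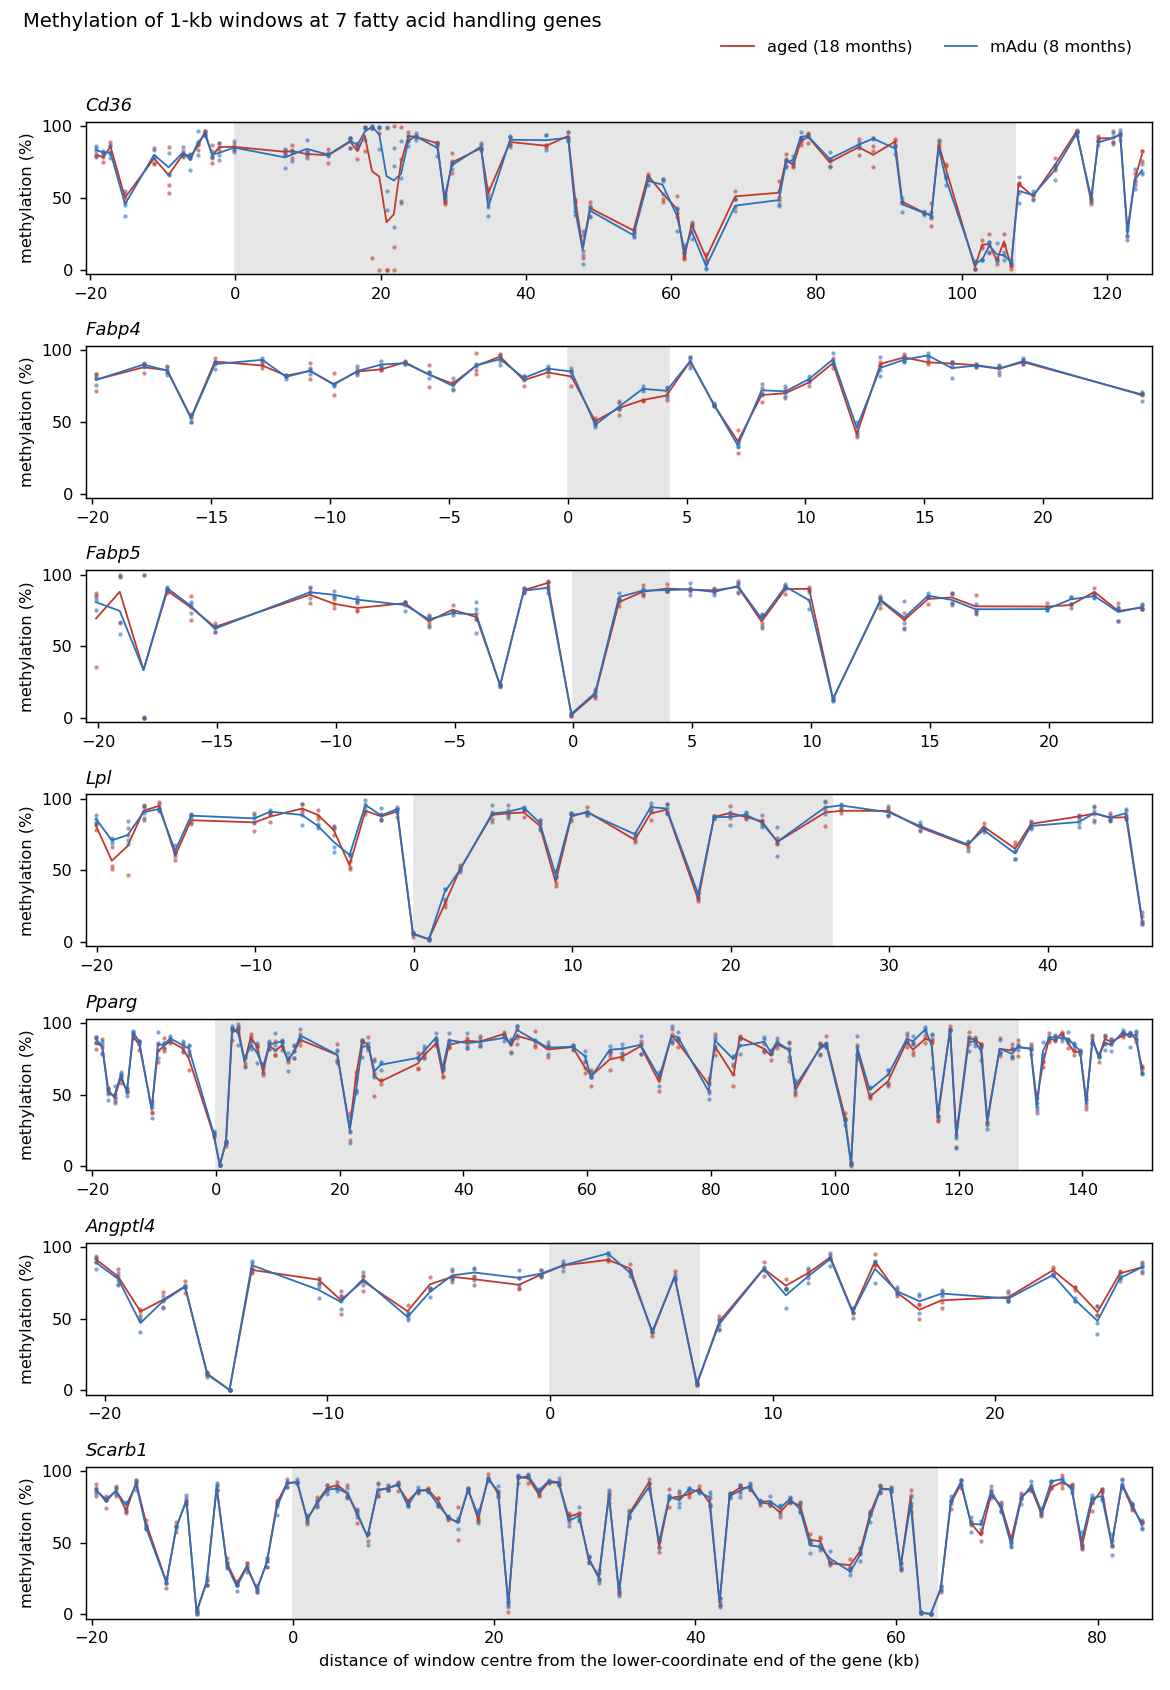
Methylation along the 7 gene loci. The horizontal axis gives the distance of each 1-kb window from the lower-coordinate end of the gene (kb), the vertical axis gives methylation (%), with dots for samples, lines through the group means that bridge windows without a value, and the gene span shaded. A trough at or near a gene end is seen in every gene except Fabp4, and the curves of the groups run together.

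Pparg had the lowest edge of the set. Its 5′ edge had 12.3, 11.4 and 10.7% methylation in aged samples and 11.4, 11.7 and 12.7% in mAdu samples. Its 3′ edge lay at 81.9% ± 5.13 in aged and 80.8% ± 2.41 in mAdu samples (SD, n = 3 each). The gene spans 129.526 kb on chromosome 6, from 115360879 to 115490404, and its body averaged 73.3% over all samples, the highest of the 7. A second unmethylated window lay 102 kb inside the 5′ end, from 115463001 to 115464000. It had 2.68, 0.434 and 1.40% in aged samples and 1.33, 2.18 and 1.75% in mAdu samples. The RefSeq promoter sequences used here list no Pparg start in that window.

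Cd36 spans 107.27 kb on chromosome 5, from 17781690 to 17888959. Its 5′ edge had 31.3, 31.2 and 30.4% in aged samples and 34.6, 30.3 and 25.6% in mAdu samples. That mean joined an almost unmethylated window inside the gene end with a more methylated window outside it. From 17883001 to 17889000, ending at the 5′ end, 6 windows in a row were each under 20%, the longest such run in the set. This block averaged 9.97, 9.51 and 13.1% in aged samples and 8.12, 10.3 and 8.36% in mAdu samples, groups that overlapped (exact two-sided permutation p = 0.3). Further into the gene, windows under 20% lay at 17829001, 17843001 and 17846001, 58.96, 44.96 and 41.96 kb from the 5′ end. The window from 17846001 had 7.68, 5.97 and 10.95% in aged samples against 4.65, 1.45 and 0.736% in mAdu samples, while that from 17843001 had 9.60, 8.23 and 7.59% in aged samples against 16.8, 11.7 and 11.4% in mAdu samples. Aged samples were the higher in the first window and the lower in the second, without overlap, with an exact permutation p of 0.1 for each, the smallest that 3 against 3 samples allow.

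Scarb1, the high-density lipoprotein receptor, spans 64.008 kb on chromosome 5, from 125277087 to 125341094. The 3 windows from 125339001 to 125342000, across its higher-coordinate end, averaged 6.05, 6.96 and 6.48% in aged samples and 6.04, 7.10 and 7.03% in mAdu samples. Inside the gene, single windows from 125298001, 125309001 and 125319001 averaged 6.91, 15.6 and 8.30% over the 6 samples. Beyond the lower-coordinate end, the window from 125267001 was at 1.85% and the 5 windows from 125270001 to 125275000 averaged 28.7%. Low windows thus lay in the lower-coordinate flank, in the body and at the higher-coordinate end, and 23.5% of the 102 Scarb1 windows were under 50%. The corresponding share was 31.2% of 77 windows in Cd36, where only 52.0% of the 148 windows of the locus had a value. Among 20490 gene loci, the Cd36 share stood at the 94.0 percentile and the Scarb1 share at the 85.8 percentile. Shares in Fabp5, Angptl4, Pparg and Lpl stood near the middle, at the 57.4, 55.8, 53.7 and 53.2 percentiles, and that of Fabp4 at the 28.9 percentile.

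The lipid-binding proteins FABP4 and FABP5 are encoded by short genes on chromosome 3. Fabp5 spans 4.026 kb, from 10012585 to 10016610. The 2 windows at its lower-coordinate end averaged 8.73, 8.22 and 10.7% in aged samples and 10.97, 8.97 and 10.6% in mAdu samples. A further window from 10023001, which ended 7.39 kb beyond the higher-coordinate end, had 13.1, 14.6 and 12.3% in aged samples against 11.8, 14.9 and 12.7% in mAdu samples. Fabp4 spans 4.275 kb, from 10204342 to 10208616, and none of its 39 windows was under 20%. Its lower-coordinate edge had 85.5, 78.5 and 85.6% in aged samples and 83.8, 87.7 and 87.4% in mAdu samples, and its higher-coordinate edge had 79.4, 83.3 and 78.9% in aged samples against 83.8, 84.8 and 77.9% in mAdu samples. The least methylated window of the Fabp4 locus, from 10211001 to 10212000, ended 3.38 kb beyond the higher-coordinate end. It had 28.6, 36.5 and 44.7% in aged samples and 32.6, 33.1 and 35.4% in mAdu samples, so aged samples spread on either side of the mAdu samples. The other Fabp4 windows under 50% were from 10205001 inside the gene, at 49.3%, and from 10216001 beyond it, at 43.9%.

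Lpl spans 26.378 kb on chromosome 8, from 68880555 to 68906932. The 2 windows from 68880001 to 68882000 at its lower-coordinate end averaged 4.25, 3.13 and 3.79% in aged samples and 4.50, 4.02 and 3.52% in mAdu samples. Inside the gene the window from 68898001 had 31.0, 28.3 and 29.8% in aged samples against 33.9, 31.9 and 34.4% in mAdu samples. The window from 68889001 had 39.4, 41.2 and 45.1% in aged samples against 45.6, 49.2 and 46.4% in mAdu samples. In each of these interior windows every aged value was below every mAdu value, with an exact permutation p of 0.1. Groups were separate in 10% of all windows. Windows under 50% formed 52 runs in the 7 loci, of which 6 were separate and higher in aged samples and 4 separate and lower. Angptl4, the lipase inhibitor, spans 6.676 kb on chromosome 17, from 33774900 to 33781575. Its unmethylated window, from 33781001 at the higher-coordinate end, had 4.20, 3.59 and 3.92% in aged samples against 5.01, 5.79 and 4.65% in mAdu samples. The groups did not overlap, but differed by 1.24 points only, with the same exact permutation p of 0.1. The lowest window of the Angptl4 locus, at 0.317%, lay in its lower-coordinate flank, which also holds the gene Rab11b.

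**Figure D2:**
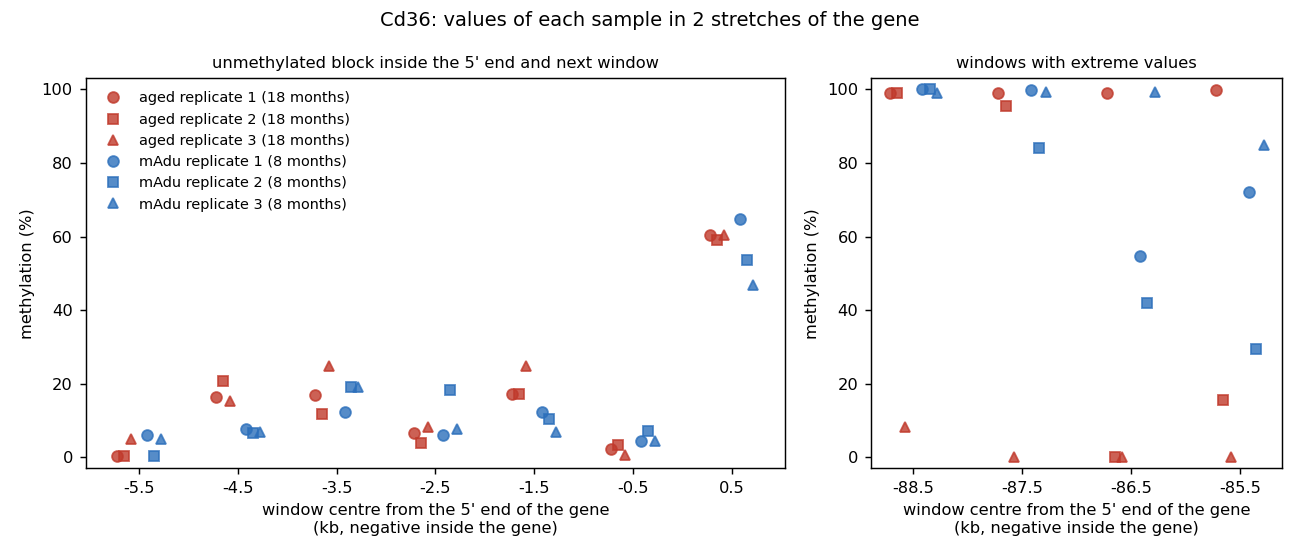
Methylation (%) of single Cd36 windows in each sample, against the distance of the window centre from the 5′ end (kb, negative inside the gene). Points are samples, at the 5′ end on the left and in the 4 windows with values near 0 or 100% on the right. The 6 windows just inside the gene end are under 20% on average, and the window from 17884001 lies at 15.3 to 20.6% in aged samples and 6.52 to 7.65% in mAdu samples.

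Over the 7 loci together, 29 of 449 windows (6.46%) were under 20% and a further 51 (11.4%) lay from 20 to 50%. Over all windows of the genome the shares were 2.89 and 6.65%. Gene loci are a closer comparison, but their medians are of shares per locus and not of pooled windows. The median over 20490 loci was 4.35% of windows under 20%. It was 11.6% for all windows under 50%, which include those under 20%, so it has no match in the 11.4% above. By locus, member shares under 50% ran from 7.69% in Fabp4 to 31.2% in Cd36. The 29 unmethylated windows formed 18 runs, of which 12 were single windows. Counts per locus were 9 in Cd36, 8 in Scarb1, 3 each in Pparg, Fabp5, Lpl and Angptl4, and 0 in Fabp4.

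Gene bodies, measured over windows overlapping the span from 500 bp inside each end, ranged less than edges. The lowest body was that of Cd36 at 59.7%, followed by Angptl4 at 64.7%, Fabp4 at 66.5%, Scarb1 at 69.3%, Fabp5 at 69.4%, Lpl at 73.0% and Pparg at 73.3%. Among all gene bodies the Cd36 level stood at the 14.0 percentile and that of Pparg near the middle. Edges ran from the 5′ edge of Pparg at 11.7%, through Angptl4 at 25.7%, Cd36 at 30.6%, Scarb1 at 32.4%, Lpl at 33.2% and Fabp5 at 37.3%, to the highly methylated edges from 81.3% in Pparg to 92.8% in Lpl. Between neighbours in these orders, 19 paired exact two-sided permutation tests over the 6 samples were made and none passed after Benjamini-Hochberg adjustment. The smallest p that 6 samples can give is 0.0312, which became 0.066 after adjustment. Pairs were formed by sorting on the same samples, and even the widest step stayed at that value. These tests therefore cannot decide whether neighbouring levels differ. Neighbours whose order held in all 6 samples were Cd36 and Angptl4, Fabp4 and Scarb1, and Fabp5 and Lpl among bodies. In bodies the order of Scarb1 and Fabp5 held in 4 samples only, with a mean difference of 0.0887 points. The step of 44.0 points between the Fabp5 edge and the next edge held in all 6 samples.

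**Figure D3:**
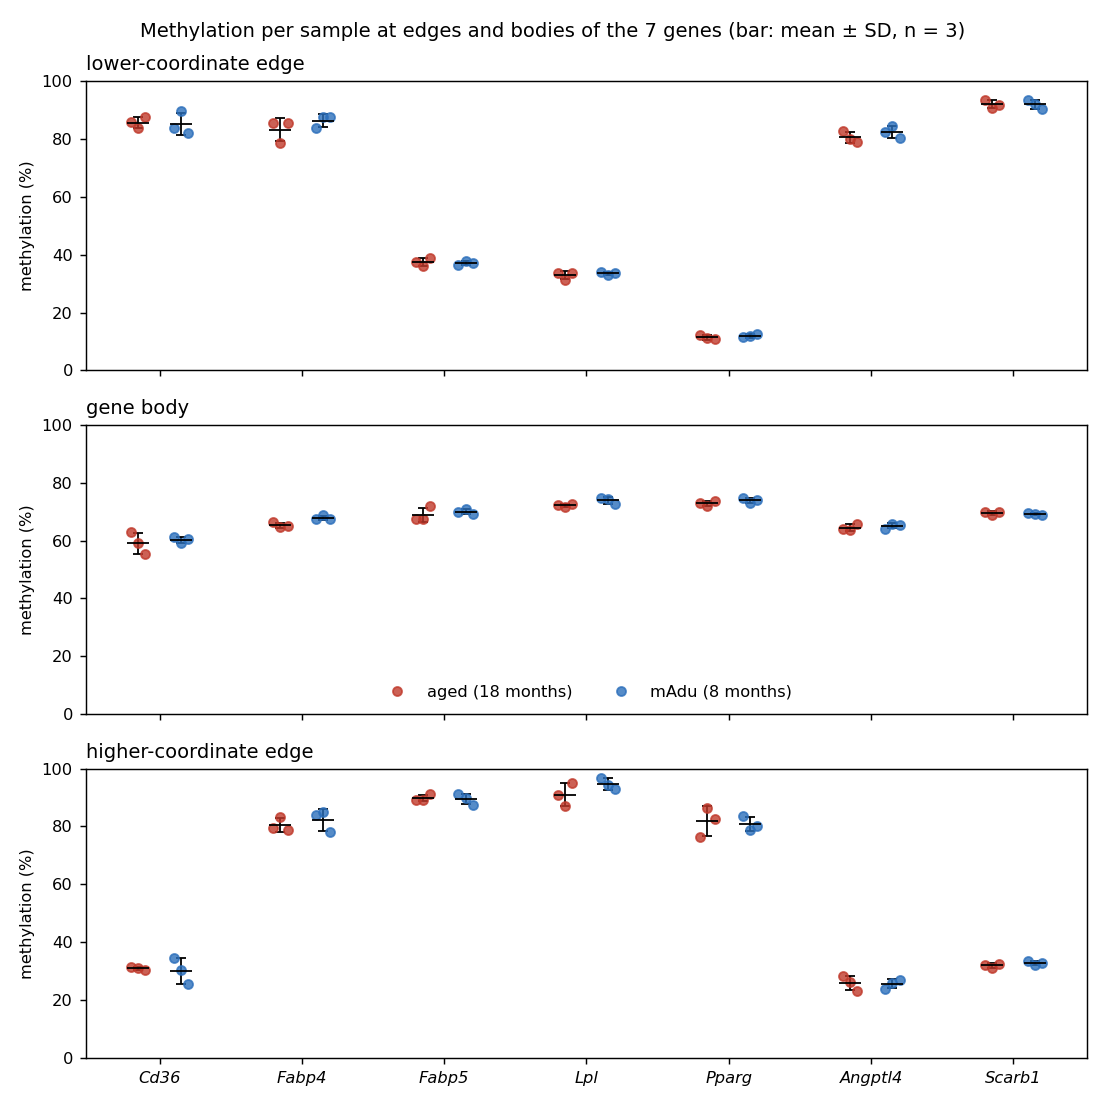
Methylation (%) of each gene's edges and body in every sample, aged samples left of mAdu samples. Points are single samples and bars are the mean ± SD of each group. The less methylated edges lie between 11.7 and 37.3% on average, all bodies between 59.7 and 73.3%, and the groups lie close together beside these differences between regions.

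No edge, body, flank or whole locus of the 7 genes passed the comparison of aged with mAdu samples at an adjusted p of 0.05 in limma, fitted over all genes of the table. Of 14 member edges 0 passed, against a background of 0.00508% of 39337 edges, and 0 had an unadjusted p under 0.05, against 5.01% of all edges. Edge differences ran from −3.66 points at the highly methylated edge of Lpl to 1.03 points at the 3′ edge of Pparg, with adjusted p from 0.964 to 1. At no member edge were the groups separate, against 10.2% of all edges. At the 5′ edge of Pparg the difference was −0.47 points (SE 0.647), and at that of Cd36 0.85 points (SE 2.14). At 7 of the 14 edges the 95% interval stayed inside 5 points on either side of 0, and the other edges allow larger differences.

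Bodies were lower in aged samples in 6 of 7 genes, with a median difference of −1.10 points, against a median of −0.0392 points over all gene bodies. Of all gene bodies, 47.7% were higher in aged samples. None of the 7 passed limma's test, against a background of 0.0171% of 17534 bodies, and 2 had an unadjusted p under 0.05, against 4.97% of all bodies. The body of Fabp4 had 66.3, 64.5 and 64.9% methylation in aged samples and 67.3, 68.7 and 67.5% in mAdu samples. Every aged value lay below every mAdu value. The difference was −2.59 points (SE 0.697, limma adjusted p = 0.953). Within it, the window from 10207001, named after its values were seen, had 64.7, 65.7 and 65.7% in aged samples against 72.8, 71.4 and 75.4% in mAdu samples. The body of Lpl had 72.3, 71.5 and 72.6% in aged samples and 74.8, 74.3 and 72.6% in mAdu samples. These groups barely failed to overlap, since the highest aged value was 72.59% and the lowest mAdu value 72.62%. The Lpl body difference was −1.76 points (SE 0.679, limma adjusted p = 0.982). Separate groups were found in 2 of 7 member bodies, against 10% of all bodies.

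The body of Cd36 had 62.8, 59.0 and 55.4% in aged samples and 61.1, 59.2 and 60.5% in mAdu samples, a difference of −1.20 points (SE 1.84, limma adjusted p = 0.989). The spread of the aged samples followed 4 windows from 17800001 to 17804000, which held values next to 0 or 100% and averaged 99.3, 52.5 and 2.03% in aged samples against 81.6, 63.9 and 95.7% in mAdu samples. Without these windows the body had 59.8, 59.5 and 59.8% in aged samples and 59.4, 58.8 and 57.6% in mAdu samples. The direction turned, to a difference of 1.08 points (SE 0.656, limma adjusted p = 0.984). The cause of the near-binary values was not tested. Among the remaining bodies, those of Fabp5, Pparg and Angptl4 differed by −1.10, −1.04 and −0.65 points and that of Scarb1 by 0.34 points, all with overlapping groups.

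**Figure D4:**
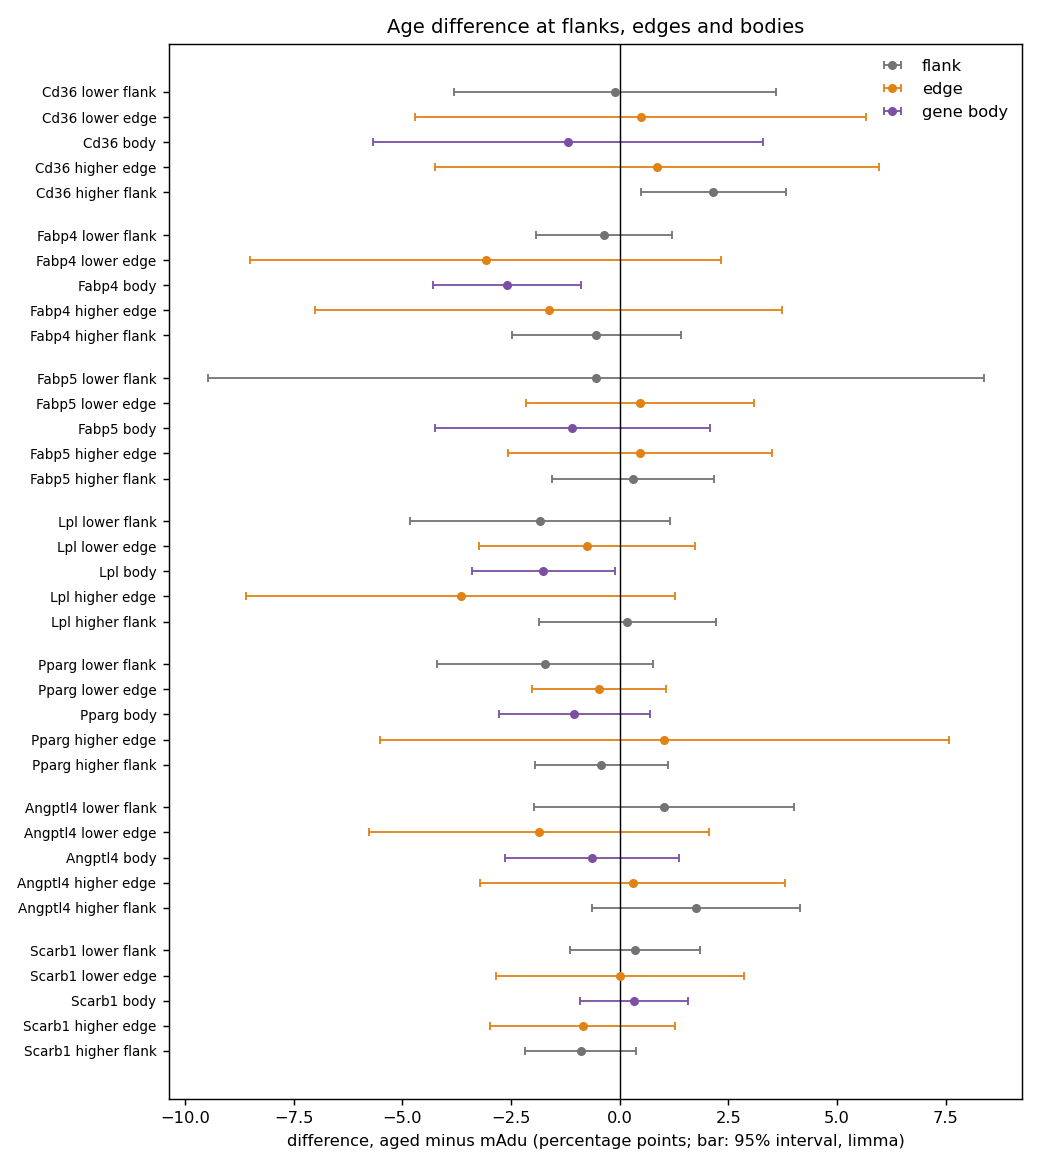
Difference in methylation, aged minus mAdu (percentage points), for the edges, body and flanks of each gene. Points are limma estimates and bars their 95% intervals. The estimates run from −3.66 to 2.15 points, and no region passes the adjusted threshold.

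Flanks covered the stretch beyond the edge to 20 kb outside each end, and none of the 14 passed limma's test, against a background of 0.0073% of 41090 flanks, with 1 at an unadjusted p under 0.05, against 4.67% of all flanks. That was the 5′ flank of Cd36, at 70.4, 71.1 and 70.3% in aged samples and 68.7, 69.3 and 67.4% in mAdu samples. The aged values were all higher, by 2.15 points on average (SE 0.678, limma adjusted p = 0.973). The higher-coordinate flank of Scarb1 also had separate groups, at 74.97% ± 0.598 in aged and 75.9% ± 0.247 in mAdu samples (SD, n = 3 each). The lower-coordinate flank of Fabp5 held 2 windows near 0 or 100%, and its difference was −0.55 points (SE 3.65) with them and −1.60 points (SE 1.12) without them. Separate groups thus occurred in 2 of 14 member flanks and in 10% of all flanks. Of the 7 whole loci none passed limma's test, as was the case for 0% of 20551 loci, and 0 had an unadjusted p under 0.05, against 4.68% of all loci. Groups were separate at 0 of the 7 and at 9.72% of all loci. Their differences ran from −1.29 points in Lpl to 1.02 points in Angptl4, and every 95% interval stayed inside 5 points on either side of 0.

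Single windows were compared in a fit over all 1683697 windows, of which 0.0211% passed limma's test, and none of the 449 member windows was among them. At an unadjusted p under 0.05 there were 34 member windows (7.57%), against 4.67% of all windows. Aged and mAdu values were separate in 66 member windows (14.7%), 29 higher and 37 lower in aged samples, against 10% of all windows. Separate windows numbered 18 in Pparg, 16 in Cd36, 10 in Lpl, 8 in Scarb1, 6 in Angptl4 and 4 each in Fabp4 and Fabp5. Loci differed in their number of windows, from 38 in Fabp5 to 105 in Pparg. As shares of windows these were 20.8% in Cd36, 20.4% in Lpl, 17.1% in Pparg and 15.4% in Angptl4. Shares in Fabp5, Fabp4 and Scarb1 were 10.5, 10.3 and 7.84%. Neighbouring windows are not independent. The smallest adjusted p of the set belonged to the Cd36 window from 17884001 to 17885000, within the unmethylated block. It had 16.3, 20.6 and 15.3% methylation in aged samples and 7.65, 6.52 and 6.98% in mAdu samples. Every aged value was above every mAdu value, but the difference of 10.4 points (SE 1.53) did not pass limma's test, with an adjusted p of 0.537 and a range of 0.235 to 0.983 over the alternatives run. The 5 other windows of the block, printed for completeness outside the naming rule, went either way. The windows from 17885001 and 17887001 averaged 17.8 and 19.8% in aged samples against 16.8 and 9.96% in mAdu samples. Those from 17883001, 17886001 and 17888001 averaged 1.84, 6.26 and 2.06% in aged samples against 3.82, 10.7 and 5.26% in mAdu samples. Among these 5 the groups were separate from 17887001, higher in aged samples, and from 17888001, lower in aged samples, and over the whole block they overlapped, as given above.

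The windows with the smallest p in each direction elsewhere had limma adjusted p of about 0.978. In Pparg the window from 115383001 had 60.0, 66.0 and 61.9% in aged samples against 51.2, 52.6 and 53.4% in mAdu samples, and that from 115387001, a few windows further in, had 60.1, 60.1 and 57.2% in aged samples against 67.2, 73.0 and 72.1% in mAdu samples. Opposite differences of 10.2 and −11.6 points were thus measured close to each other in the gene body. In Lpl the window from 68882001, which borders the unmethylated windows at its end, had 26.5, 24.4 and 28.4% in aged samples against 37.3, 37.0 and 30.2% in mAdu samples. In Angptl4 the window from 33777001 in the body had 90.4, 91.1 and 91.6% in aged samples against 94.6, 95.9 and 96.0% in mAdu samples. In Cd36 the window from 17869001 differed by −11.3 points (SE 3.62).

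Other lipid genes were read from the same fits. Of 76 listed genes, 75 were found, and none of their 149 edges or 71 bodies passed limma's test, with 1 edge and 5 bodies at an unadjusted p under 0.05. Over all genes, 0.00508% of edges and 0.0171% of bodies passed, and 5.01% and 4.97% had an unadjusted p under 0.05. Their median differences were −0.01 points at edges and 0.03 points in bodies. Bodies were higher in aged samples in 37 of the 71 genes, against 47.7% of all gene bodies. By listed role, the body difference was positive in 3 of 10 genes of vascular lipolysis and 5 of 12 of uptake, transport and binding. It was positive in 7 of 12 genes listed under lipoprotein and scavenger receptors and 7 of 13 of activation and storage. The counts were 7 of 11 for oxidation and 8 of 13 for regulators, and no gene of any role passed. Roles are list labels, and a label need not describe each gene under it. Gpihbp1, which holds lipoprotein lipase on the endothelial surface, had edges at 38.4% ± 1.45 and 12.8% ± 1.17 in aged samples and 39.2% ± 0.940 and 12.8% ± 1.07 in mAdu samples (SD, n = 3 each). Meox2, an endothelial transcription factor, had at its 3′ edge 79.6, 81.4 and 74.96% in aged samples against 71.6, 71.2 and 73.7% in mAdu samples, a difference of 6.45 points (SE 2.03, limma adjusted p = 0.964). Dgat1, which makes triglyceride, had the smallest body p, with 71.6, 70.6 and 70.9% in aged samples against 69.0, 68.5 and 69.3% in mAdu samples (limma adjusted p = 0.953). Edges with the smallest p in Mgll, Slc27a6 and Plin1 differed by 2.27, −5.28 and −1.82 points, and the bodies of Lipc, Apoa5 and Plin5 by 1.52, −2.21 and −1.48 points. The Lipc difference turned to −0.0973 points without windows near 0 or 100%.

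By the root mean square distance over 5 regions and 6 samples, the genes with the methylation pattern nearest to each of the 7 were found among 16703 genes. The regions were ordered from 5′ to 3′ where the strand was known, as for Cd36 and Pparg, and by coordinate otherwise. Strand was known for 16457 of all 20665 genes. The other members, in coordinate order, were thus compared mostly with genes in 5′ to 3′ order. Their matches may differ in the order of transcription. The nearest was Snrnp35 for Pparg at 1.92 points, followed by Eya2 at 2.31 points. Epb41l2 and Zfp65 lay 2.11 and 2.48 points from Lpl, Lsm5 and Smim1 3.02 and 3.18 points from Cd36, and Stc1 and Zfand2b 3.13 and 3.19 points from Fabp5. Trpa1 and Loxl1 lay 3.47 and 3.59 points from Angptl4, Arcn1 and Lrp5 3.54 and 3.74 points from Scarb1, and Ftcd and D6Ertd527e 3.55 and 3.71 points from Fabp4. Median distances to all genes were 16.0 to 34.4 points. They were largest for Scarb1 and Angptl4, at 34.4 and 32.6 points, whose low edge has the higher coordinate. With the order of regions mixed in this way, these larger distances do not show an unusual pattern. The reversed order was not tested.

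The sorted cells were described by marker genes. The bodies of 9 endothelial markers averaged 47.5% methylation in aged samples and 47.0% in mAdu samples. Those of other cell types were higher in level: 68.4% in aged and 68.5% in mAdu samples for 8 epithelial markers, 71.4% in aged and 71.6% in mAdu samples for 8 haematopoietic markers, and 71.2% in aged and 71.3% in mAdu samples for 5 alveolar macrophage markers. For 8 mesenchymal markers they were 68.6% in aged and 68.9% in mAdu samples, and for 5 adipocyte markers 67.7% in aged and 68.3% in mAdu samples. The 7 fatty acid handling genes averaged 67.4% in aged and 68.6% in mAdu samples. Mean methylation over all windows was 73.1 to 73.7% in aged samples and 73.3 to 73.6% in mAdu samples. Methylation does not measure expression, and a part of other cell types in these levels was not tested.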

How the data were processed

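Per the labels' protocols, 30 ng of DNA per sample entered tagmentation-based bisulfite sequencing. The authors deposited a mean methylation fraction, from 0 to 1, for 1684140 windows of 1000 bp on 19 autosomes in 6 samples. BWA 0.7.8 and mm10 were named per the submitters' processing notes. The CpG caller, coverage filter and any smoothing were not given in the sources used here, and no file gives coverage, so no counting interval could be set. Values were multiplied by 100, windows lacking a value in any sample were dropped, and edges, bodies, flanks and loci were means of their windows. In 28920 windows (1.72%) at least 1 sample had a value under 0.01 or above 99.99%, and these windows stayed in the fits.

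Aged minus mAdu was fitted with limma 3.58.1 in R 4.3.3, group only, with a variance trend, over every gene region or window, with Benjamini-Hochberg adjustment and a threshold of 0.05. Single values used exact permutation tests (scipy 1.17.1). The fits were tested on simulated data. The 7 genes and all lists were chosen with earlier results of these data known. Named were the 7 genes, Gpihbp1, of other lipid genes any that passed and the 2 with the smallest p per direction for edges and bodies, per locus the least methylated window and the smallest p per direction, and the 2 most alike genes. Marker lists covered endothelial, epithelial, haematopoietic, alveolar macrophage, mesenchymal and adipocyte cells. Strand and promoters came from RefSeq for Cd36 and Pparg; other ends are named by coordinate. The alternatives were a logit scale, no variance trend, a replicate block, each sample left out, no windows near 0 or 100%, assignment by window centre, and other edge and flank widths.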

Additional observations from a re-analysis of the deposited data

How the results depend on the processing

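None of the 7 genes had a called edge, body, flank, locus or window under any alternative run. The smallest adjusted p of a member region was 0.947 for edges, 0.856 for bodies, 0.909 for flanks, 0.828 for loci and 0.235 for windows. Of 842 values under alternatives for 73 results, 786 kept direction and side of the threshold and 56 turned direction without passing. The cause of these turns was not tested. Over all genes, calls ran from 0 to 14 edges (main 2), 0 to 4 bodies (main 3), 0 to 11 flanks (main 3) and 0 to 5 loci (main 0). Over all windows they ran from 59 to 998 (main 355). Same-numbered samples deviated with correlations of −0.166, −0.136 and −0.00642 over bodies, and differently numbered samples with −0.0437 to 0.199. Whether equal numbers mark a pairing is not stated, and correlations among so few samples cannot decide it. With the replicate block 0 member edges, bodies, flanks, loci or windows were called, and calls over all genes were 1, 0, 1 and 0, with 185 windows. Depth is unknown, so error per window cannot be weighed. The order of levels was not rerun with samples left out, since 5 samples cannot pass.

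With windows assigned by their centre, differences in points turned to −0.774 at the lower-coordinate edge of Fabp5, −0.336 at the higher edge of Pparg, 0.174 in the lower flank of Fabp5, 0.0706 over the Fabp5 locus and −1.62 at the higher edge of Gpihbp1. Edges of 500 bp on each side gave −0.965 at the lower edge of Fabp5 and −0.978 at the higher edge of Gpihbp1, and wider edges gave 0.509 at the lower edge of Scarb1. Without windows near 0 or 100% the Cd36 body moved to 1.08, the Cd36 locus to 1.04 and the Lipc body to −0.0973. With flanks of 10 kb, the Lpl higher flank was −0.434 and the Lpl lower flank 0.0707. With a limit of 10% in place of 20%, 16 windows were unmethylated (main 29).

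With each sample left out in turn, edge differences spanned 0: Angptl4 higher −0.840 to 1.66, Cd36 higher −1.43 to 3.06 and lower −1.07 to 2.69, Fabp5 higher −0.512 to 1.31 and lower −0.217 to 1.15, Lpl lower −1.21 to 0.0620, Pparg higher −1.31 to 3.77, Scarb1 lower −0.781 to 0.794 and Gpihbp1 higher −0.534 to 0.662. So did the Cd36 body, −3.06 to 0.637. Flanks that spanned 0 were Cd36 lower −1.44 to 0.768, Fabp4 higher −1.05 to 0.0368 and lower −0.772 to 0.153, Fabp5 higher −0.425 to 0.800 and lower −3.75 to 2.52, Lpl higher −0.635 to 0.718 and Pparg higher −0.876 to 0.117. Loci were Cd36 −2.00 to 0.824, Fabp5 −1.59 to 1.20 and Scarb1 −0.138 to 0.296. Windows were Fabp4 from 10211001, −1.13 to 6.91, and from 10220001, −0.363 to 5.39, Lpl from 68881001, −0.286 to 0.274, and Scarb1 from 125340001, −0.0313 to 0.465.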
